A study of Mus musculus with 6 samples.

Results

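*Rora*, *Foxp2*, *Foxp4*, *Lhx1*, *Lhx5*, *Ebf1*, *Ebf2*, *Esrrb*, *Pax6* and *Zic1* encode 10 transcription factors that are known for building Purkinje cells (PCs) and other cerebellar neurons. They are 10 of the 32286 gene rows in tables of single-nucleus RNA counts from mouse cerebellum. They were chosen by name, with earlier results of these data known. Their rows were summed over the nuclei of each mouse and cell type label. The sums were then described across cell types and compared between SCA1 and wild-type (WT) mice.

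The SCA1 mice carried *Pcp2-ATXN1[82Q]*, a human *ATXN1* transgene with an expanded CAG repeat, on a C57BL/6 background. The *Pcp2* promoter drives the transgene in PCs, so other cerebellar cells of these mice do not carry the mutant protein by design. WT littermates served as controls, and both groups kept their own mouse *Atxn1*. Whole cerebella were taken at 12 weeks of age from 3 mice of each genotype, with 1 library per mouse.

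RORα, the product of *Rora*, is a nuclear receptor without which PCs fail to mature, as the *staggerer* mouse shows, and it is known to act in a complex that ATXN1 also joins. The LIM homeodomain factors *Lhx1* and *Lhx5* help to specify PCs, the forkhead factors *Foxp2* and *Foxp4* mark them and shape their dendrites, and *Ebf1* and *Ebf2* belong to the early B cell factor family, of which *Ebf2* is known for setting PC subtypes apart. *Pax6* and *Zic1* act in the granule neuron lineage. *Esrrb* encodes an orphan nuclear receptor related to the estrogen receptors.

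A single-nucleus library counts unique molecular identifiers (UMIs), one per captured RNA molecule, and intronic reads were counted as well as exonic ones. The 6 libraries held 45473 nuclei in all, between 3354 and 10897 per mouse, and 18916647 to 98366627 UMIs per mouse. WT mouse 2 was shallow, with a median of 2246.5 UMIs per nucleus and 4784 nuclei under 3000 UMIs, whereas the highest median was 7253 in WT mouse 1. A total of 254 barcodes occurred in more than 1 library. The authors' SingleR labels were used as deposited, and 13 of 24 labels had at least 10 nuclei in every mouse. They held 45042 nuclei, and 431 nuclei of the other 11 labels were not tested. The PC label held 292 nuclei (65, 52 and 29 in SCA1 mice 1 to 3 and 76, 41 and 29 in WT mice 1 to 3) at a median of 36466.5 UMIs, and the granule neuron label held 37532 nuclei at a median of 5923 UMIs.

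The label names were checked against marker genes in WT mice, in counts per 1000000 UMIs of the label (CPM). In the PC label *Itpr1* averaged 11823 CPM, *Car8* 2910.3 CPM and *Calb1* 900.4 CPM, against 327, 254 and 208 CPM in the granule label. The labels Pvalb-Nefh and Pvalb-Rab3b held the molecular layer interneuron marker *Sorcs3* (2057 and 1686 CPM), while Pvalb-Cadm1 held *Nxph1* (4447 CPM) and little *Sorcs3* (10.5 CPM). *Slc1a3* was highest in the Bergmann glia (BG) label at 3911 CPM, and *Aqp4* in the velate astrocyte (VA) label at 1099 CPM. The label Endothelial_Tip.Dcn.Nnat went against its name, since the endothelial genes *Flt1* and *Cldn5* stood at 88.1 and 2.19 CPM and the fibroblast genes *Col1a2* and *Dcn* at 336 and 280.1 CPM. It is called Dcn.Nnat here. Human *ATXN1* gave 12, 15 and 19 UMIs in PC-labelled nuclei of the 3 SCA1 mice and 0 UMIs in those of each WT mouse.

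Of the 10 factors, 6 reached their highest WT mean in the PC label: *Foxp4*, *Lhx1*, *Lhx5*, *Ebf1*, *Ebf2* and *Esrrb*. *Rora* was highest in molecular layer interneuron labels, *Foxp2* and *Zic1* in Dcn.Nnat and *Pax6* in granule neurons. Over nuclei that shared their cluster's label, or with TMM factors over all labels, *Foxp2* was highest in PCs and *Zic1* in granule neurons. The labels were assigned from the expression of the same nuclei, and the factors were chosen as genes known for these cells, so the levels across labels are a description without a test. Since a CPM is a share of one label's own RNA and is not set per length, levels are compared between labels for one gene and not between genes.

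**Figure D1:**
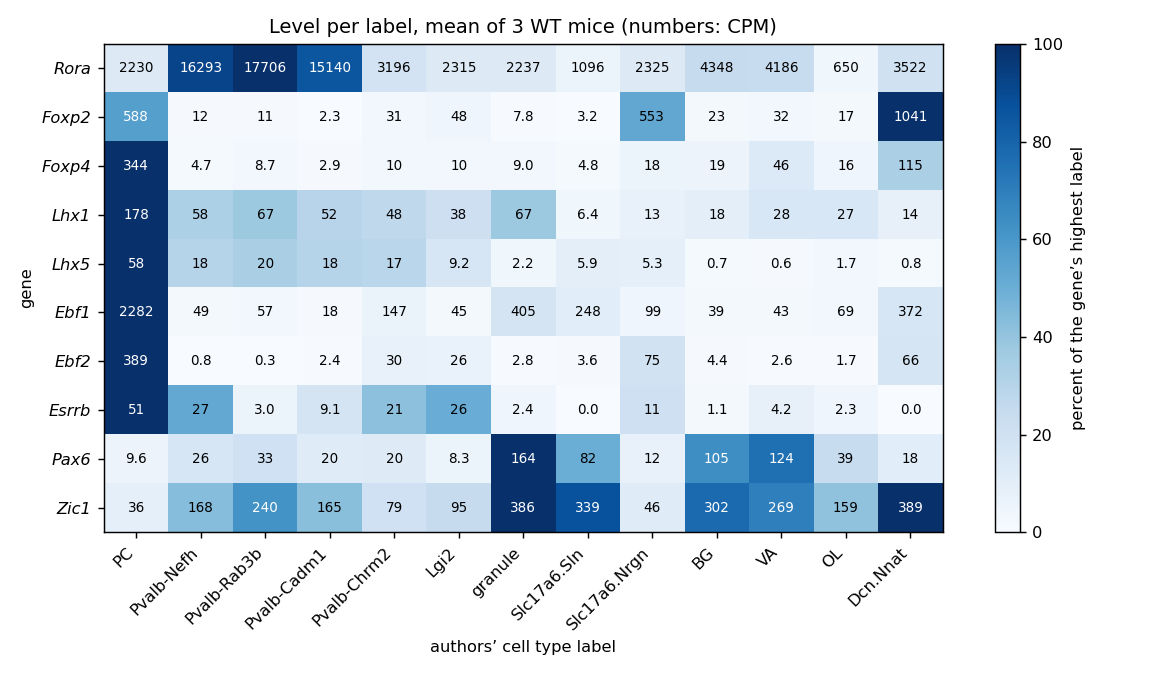
Mean level of each factor (rows) in each of the 13 labels (columns) over 3 WT mice. Numbers are CPM and colour is the percent of the gene's highest label. *Ebf1* stands at 2282 CPM in PCs and 405 CPM in granule neurons, while *Rora* is darkest in 3 interneuron labels.

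*Rora* spans chr9:68653786-69388246 on the forward strand of mm10. In WT mice 1, 2 and 3 it stood at 14674, 14992 and 23452 CPM in Pvalb-Rab3b, at 13682, 14263 and 20934 CPM in Pvalb-Nefh and at 13433, 12724 and 19261 CPM in Pvalb-Cadm1. These 3 labels overlapped with each other, and each of their mice lay above every mouse of every other label. BG followed at 4348 ± 631 CPM (SD, n = 3) and VA at 4186 ± 788 CPM. Dcn.Nnat (3522 CPM), Pvalb-Chrm2 (3196 CPM), Slc17a6.Nrgn (2325 CPM), Lgi2 (2315 CPM) and granule neurons (2237 CPM) came next, each overlapping with its neighbour in the order.

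PCs came 11th of 13 labels for *Rora*, at 1901, 2077 and 2711 CPM in WT mice 1 to 3, and only Slc17a6.Sln (1096 CPM) and oligodendrocytes (OL, 649.9 CPM) lay lower. The PC range overlapped with those of Pvalb-Chrm2, Slc17a6.Nrgn, Lgi2 and granule neurons, so PCs were not separated from these labels. The PC level was 0.919, 1.07 and 1.00 times that of granule neurons of the same mouse. The Pvalb-Nefh level was 7.20, 6.87 and 7.72 times that of PCs. Counted as molecules, a PC-labelled nucleus of a WT mouse held 75.7 ± 31.4 *Rora* UMIs on average, against 14.0 ± 8.05 in a granule nucleus and 169 ± 106 in a Pvalb-Nefh nucleus. A BG nucleus held 35.3 ± 18.1 and a VA nucleus 29.3 ± 15.6, so the means of both lay below PCs per nucleus and above them in CPM. The gene best known for PC maturation was thus no higher in CPM in PCs than in granule neurons, and higher per nucleus in PCs, whose nuclei held more UMIs in all.

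**Figure D2:**
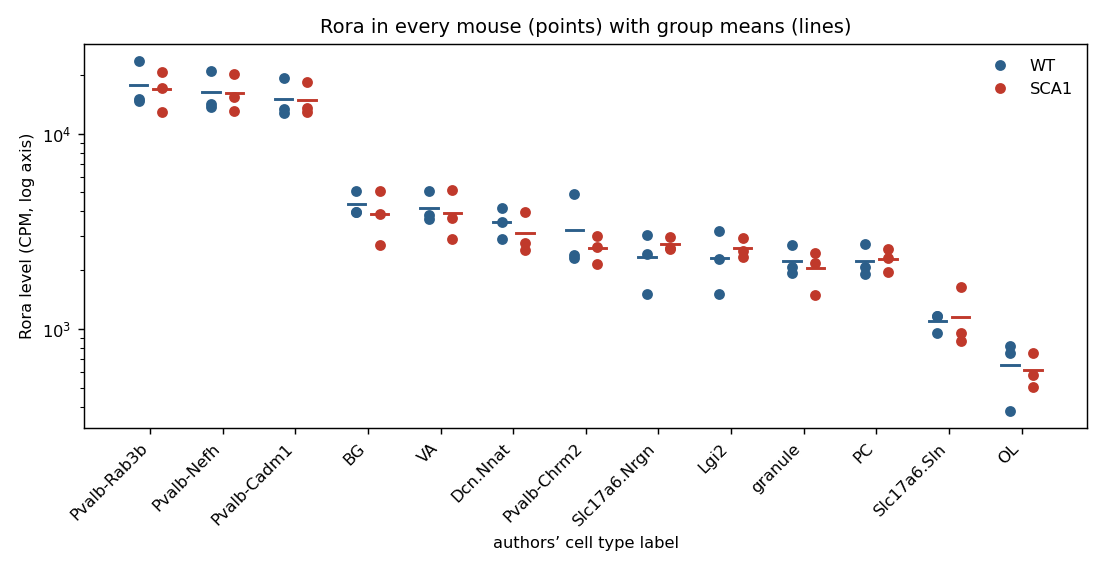
*Rora* level (CPM, log axis) in each label for every WT and SCA1 mouse (points), with group means (lines). The 3 interneuron labels at the top average 15139.5 to 17706 CPM in WT mice, and SCA1 and WT points overlap in PCs and granule neurons.

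*Esrrb*, the other nuclear receptor (chr12:86361117-86521628), stood at 39.2, 67.5 and 47.6 CPM in PCs of WT mice 1 to 3. This range overlapped with those of Pvalb-Nefh (27.0 ± 13.3 CPM) and Pvalb-Chrm2 (21.3 ± 18.5 CPM). Lgi2, whose marker *Lgi2* stood at 499.8 CPM, lay between them at 26.1 ± 12.8 CPM. Granule neurons gave 2.37 CPM, and no UMI was counted in Dcn.Nnat or Slc17a6.Sln of WT mice.

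*Foxp2* (chr6:14901349-15441977) was carried by 3 labels. It stood at 545, 1205 and 1373 CPM in Dcn.Nnat, at 539.7, 573 and 652 CPM in PCs and at 533, 274 and 853 CPM in the glutamatergic label Slc17a6.Nrgn. These ranges overlapped, and the next label, Lgi2, lay well below them at 47.7 ± 13.8 CPM. *Foxp4* (chr17:47867133-47924645, reverse strand) was more narrowly distributed. Its 344, 298 and 390.4 CPM in PCs were separated from Dcn.Nnat (103, 145 and 96.0 CPM), which in turn was separated from VA (46.4 ± 10.8 CPM). The other 10 labels averaged between 2.94 and 19.2 CPM.

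*Lhx1* (chr11:84518284-84525535, reverse strand) stood at 184, 239.9 and 110.4 CPM in PCs of WT mice. Every one of these lay above the 63.6, 76.4 and 61.7 CPM of Pvalb-Rab3b and the 64.4, 82.9 and 53.3 CPM of granule neurons. Pvalb-Nefh (58.5 CPM), Pvalb-Cadm1 (52.5 CPM) and Pvalb-Chrm2 (48.2 CPM) followed without separation. *Lhx5* (chr5:120431699-120441223) was at 65.1, 69.9 and 39.5 CPM in PCs, and WT mouse 3 lay below the highest mouse of Pvalb-Rab3b (41.4 CPM). The interneuron labels Pvalb-Rab3b, Pvalb-Nefh, Pvalb-Cadm1 and Pvalb-Chrm2 averaged 19.6, 17.7, 17.6 and 16.8 CPM, against 2.22 ± 1.77 CPM in granule neurons. The paired LIM factors thus shared their top label and differed in granule neurons, where *Lhx1* reached levels close to those of interneurons and *Lhx5* did not. The granule level of *Lhx1* was 39.3% ± 7.78 of the PC level in the same mice. The part of PC RNA in the granule level of *Lhx1* was not tested.

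The start of *Lhx1* lies beside that of a divergent noncoding RNA, *Lhx1os* (chr11:84525660-84535831, forward strand). The promoter window of *Lhx1* is printed because both genes are compared between genotypes later. It covers chr11:84525485-84525784 of GRCm38.p6 on the minus strand, from RefSeq, and has 65.7% G and C. Capitals mark the 124 bases between the annotated starts of both genes.
Lhx1: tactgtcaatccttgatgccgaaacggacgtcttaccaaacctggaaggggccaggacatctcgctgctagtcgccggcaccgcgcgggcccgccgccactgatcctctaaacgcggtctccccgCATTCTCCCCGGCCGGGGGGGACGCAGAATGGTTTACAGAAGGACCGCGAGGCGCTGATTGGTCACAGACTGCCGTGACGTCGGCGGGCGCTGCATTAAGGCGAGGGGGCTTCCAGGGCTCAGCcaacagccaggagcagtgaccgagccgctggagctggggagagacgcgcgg

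RefSeq held 10 promoter windows of this length for 7 of the 10 factors, and none for *Foxp2*, *Lhx5* and *Ebf2*. None of the 10 windows held AGGTCA, the half-site that RORα and ESRRB read, on either strand, and 16.3% of all 32851 windows did. The octamers TGAATGAA and TGAATGGA, known as sites of the ATXN1 partner CIC, were likewise in none of the 10, and in 1.3% and 1.21% of all windows. No overlap between motifs arose, as no window matched.

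*Ebf1* (chr11:44617317-45008091) stood at 2137, 2415 and 2295 CPM in PCs of WT mice, far above the 372, 394 and 450.1 CPM of granule neurons. Dcn.Nnat (372 ± 123 CPM) overlapped with granule neurons, and Slc17a6.Sln (248 ± 26.4 CPM) overlapped with Dcn.Nnat and not with granule neurons. *Ebf2* (chr14:67233292-67430918) was at 389, 313 and 463 CPM in PCs. Its next labels, Slc17a6.Nrgn (75.2 ± 62.3 CPM) and Dcn.Nnat (66.5 ± 71.8 CPM), varied widely between mice, and granule neurons gave 2.82 ± 1.91 CPM. So both EBF genes were separated from every other label in PCs. The granule level of *Ebf1* was 17.8% ± 1.69 of the PC level in the same mice. Among the PC markers this share ran from 2.94% for *Itpr1* over 5.93% for *Slc1a6*, 9.23% for *Car8*, 13.6% for *Ppp1r17* and 23.5% for *Calb1* to 38.8% for *Pcp2*. In BG these markers stood at 67.3% to 97.0% of their granule level and *Ebf1* at 10.1% ± 10.4. The part of PC RNA in the granule level of *Ebf1* was not tested.

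Among the PC-labelled nuclei of WT mice, pooled over mice, *Ebf1* and *Ebf2* were spread differently. *Ebf1* had a median of 20.4 UMIs per 10000 UMIs of a nucleus, with quartiles of 14.8 and 27.1, and 8.22% of nuclei held none. *Ebf2* had a median of 2.39 with quartiles of 0 and 5.83, and 29.5% of nuclei held none. By mouse, 93.4%, 100% and 75.9% of nuclei of WT mice 1 to 3 held *Ebf1*, and 77.6%, 65.9% and 58.6% held *Ebf2*. At an equal 10000 UMIs per nucleus, 73.2% ± 2.85 of PC nuclei of WT mice were counted with *Ebf2* and 99.0% ± 1.70 with *Ebf1*. *Rora* had a median of 17.6 with quartiles of 11.5 and 25.3, and 0.685% of nuclei held none.

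*Pax6* (chr2:105668900-105697364) stood at 162, 211 and 118 CPM in granule neurons of WT mice, with an overlapping range in VA (124 ± 32 CPM). BG (105 ± 21.1 CPM) and Slc17a6.Sln (82.2 ± 47.8 CPM) lay below every granule value of *Pax6*. Slc17a6.Sln is a label with the unipolar brush cell genes *Lmx1a* and *Eomes* at 493 and 89.1 CPM. *Zic1* (chr9:91358058-91365810, reverse strand) was at 503, 356 and 309 CPM in Dcn.Nnat and at 473, 378 and 306 CPM in granule neurons. From Dcn.Nnat down to PCs, each label overlapped with the next for *Zic1*. The VA level of *Pax6* was 76.2% ± 5.93 of the granule level in the same mice, and that of *Zic1* was 68.5% ± 9.77. Of the granule neuron markers, *Gabra6* reached 19.8% ± 11.7 in VA, *Fat2* 19.9% ± 6.21, *Slc17a7* 30.0% ± 14.2 and *Cbln3* 42.9% ± 23.3, the last with 64.6% in WT mouse 1. The part of granule RNA in the glial levels of both factors was not tested.

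In PCs the granule lineage factors were low, with *Pax6* at 9.56 ± 7.45 CPM and *Zic1* at 36.4 ± 34.0 CPM. As a percent of the granule level of the same mouse, *Zic1* in PCs was 16, 4.14 and 5.88 in WT mice 1, 2 and 3, and *Pax6* was 10.7, 1.14 and 7.62. *Gabra6* gave 11.9, 0.792 and 4.38 percent. All 3 genes were highest in WT mouse 1 and lowest in WT mouse 2. For *Pax6*, 1 nucleus held 19 of the 56 UMIs in PC nuclei of WT mouse 1. The part of granule RNA in the PC levels of *Pax6* and *Zic1* was not tested.

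For each factor the 3 genes with the most similar pattern over the 13 labels were found by Pearson's r of WT mean log2(CPM + 1), among 12754 genes with at least 500 UMIs. The points share libraries and depth, so r is a description. *Foxp4* was most like *Fam117a* (r = 0.958), *Svil* and *Mgmt*, and *Foxp2* most like *Mgmt* (r = 0.95), *Pdzrn3* and *Unc13b*. For *Lhx5* these were *Gm15856* (r = 0.955), *Shank2* and *Gm14372*, and for *Lhx1* they were *Fdxr* (r = 0.915), *Fam184b* and *Apip*. *Ebf2* came closest to *Ankrd33b* (r = 0.909), *Igf1* and *Htr1b*, and *Ebf1* to *Tmem11* (r = 0.869), *Cdon* and the antisense gene *Gm12158* that overlaps it. *Pax6* paired with *Nudt3* (r = 0.907), its genomic neighbour *Elp4* (r = 0.906) and *Mapk7*. *Zic1* paired with *Tpcn1* and *Spen* (r = 0.899 each) and with *Zic4*, which overlaps it. *Rora* had *Cenpt* (r = 0.87), *Slc3a2* and *Zfp423*, and *Esrrb* had *Clec2l* (r = 0.867), *Clec16a* and *Slc3a1*. Within the 10, *Foxp2* was closest to *Ebf2* (r = 0.86) and *Foxp4* (r = 0.85), and *Esrrb* and *Zic1* were the most opposed (r = -0.76).

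The second question was whether these factors differ between SCA1 and WT mice in the cells that express the transgene. In PCs none of the 10 passed the test at an adjusted p of 0.05, and neither did any of the 9821 genes tested by edgeR's quasi-likelihood test (0.0%), of which 653 had an unadjusted p under 0.05 (6.65%). DESeq2 called 66 genes (0.672%), with none of the 10 factors among them. With a replicate block instead of the batch term, edgeR called 172 genes (1.75%), and *Ebf2* and *Foxp4* were 2 of them. The sample labels do not pair the mice by number. Mice of the same number deviated together in the granule sums. In the PC sums those numbered 2 had r = 0.067. Mice were the replicates, and in a sum fewer nuclei with a gene's RNA and less of it per nucleus cannot be told apart. Values are CPM scaled by TMM, in the order of SCA1 mice 1 to 3 and WT mice 1 to 3.

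*Lhx5*, *Ebf2*, *Lhx1* and *Foxp4* had an unadjusted p under 0.05, and all 4 were lower in SCA1 by the fit, against 4.31% of all genes tested. In 3 of the 10 factors every SCA1 mouse lay below every WT mouse, against 5.19% of all genes. The factors were chosen with earlier results of these data known, so both counts are descriptions.

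*Lhx5* stood at 28.0, 30.8 and 36.8 in SCA1 mice and at 63.6, 75.3 and 45.6 in WT mice. No SCA1 mouse reached the lowest WT mouse. The SCA1 level was 0.517 times the WT level by the fit (log2 fold change -0.95, SE 0.262, edgeR adjusted p = 0.344). The level in PCs rested on 493 *Lhx5* UMIs in all, and the antisense gene *Gm27199*, which overlaps *Lhx5*, had 57.2% as many, so reads of both cannot be told apart if strand was not used.

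*Ebf2* stood at 219, 219 and 280.1 in SCA1 mice and at 380, 337 and 535 in WT mice. The groups did not overlap, and the ratio was 0.575 (log2 fold change -0.80, SE 0.227, edgeR adjusted p = 0.363, or 0.0132 with the replicate block). The difference was -0.80 on the log2 scale both in batch 1, which held SCA1 mouse 1 and WT mouse 1, and in batch 2, which held the other 4 mice. The level rested on 3406 *Ebf2* UMIs in PCs, and the overlapping genes of the opposite strand *4930438E09Rik*, *1700120O09Rik* and *Gm6878* had 12.7%, 3.73% and 1.67% as many, so their reads cannot be told apart from those of *Ebf2* if strand was not used. The relative *Ebf1* did not follow it, with 2199, 2239 and 2519.9 in SCA1 mice against 2087, 2599 and 2652 in WT mice (log2 fold change -0.07, SE 0.246).

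*Foxp4* stood at 241, 199 and 285 in SCA1 mice and at 336, 321 and 451 in WT mice. Again no values overlapped, with a ratio of 0.66 (log2 fold change -0.60, SE 0.224, edgeR adjusted p = 0.583, or 0.0384 with the replicate block). Its relative *Foxp2* was at 636, 645 and 830.2 against 527, 616 and 753, with a log2 fold change of 0.17 (SE 0.215). On CPM without TMM scaling every SCA1 mouse lay above every WT mouse for *Foxp2* and for *Ebf1*, as for 12.0% of all genes tested, and with TMM scaling the groups overlapped for both. Without TMM scaling the median log2 fold change of all genes was 0.20, against 0.02 with it.

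*Lhx1* stood at 99.1, 141 and 103 in SCA1 mice and at 179.9, 258 and 128 in WT mice. SCA1 mouse 2 lay above WT mouse 3, so the groups overlapped, and the ratio was 0.606 (log2 fold change -0.72, SE 0.27, edgeR adjusted p = 0.583). *Lhx1* was also lower by the fit in OL (-0.88, SE 0.343), as given below with the other labels. Its divergent neighbour *Lhx1os*, named for its position and after its values were seen, was at 127, 95.0 and 127 in SCA1 mice and at 169, 236 and 159.7 in WT mice (log2 fold change -0.68, SE 0.229, edgeR adjusted p = 0.506). Both genes flank the 124 capital bases printed above, and both were lower in SCA1 in batch 1 (-0.86 and -0.41 on the log2 scale) and in batch 2 (-0.66 and -0.83).

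*Rora* stood at 2026, 1818 and 2614 in SCA1 mice and at 1856, 2236 and 3133 in WT mice. The groups overlapped, with a log2 fold change of -0.14 (SE 0.278, edgeR adjusted p = 0.999). *Esrrb* was at 61.8, 54.8 and 64.2 against 38.3, 72.7 and 55, which also overlapped (log2 fold change 0.20, SE 0.249). *Pax6* (log2 fold change -0.12, SE 0.543) and *Zic1* (0.22, SE 0.392) ranged from 2.60 to 16.9 and from 15.8 to 73.8 over the 6 mice. For both the highest mouse was WT mouse 1, where 1 nucleus held 19 of the 56 *Pax6* UMIs.

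**Figure D3:**
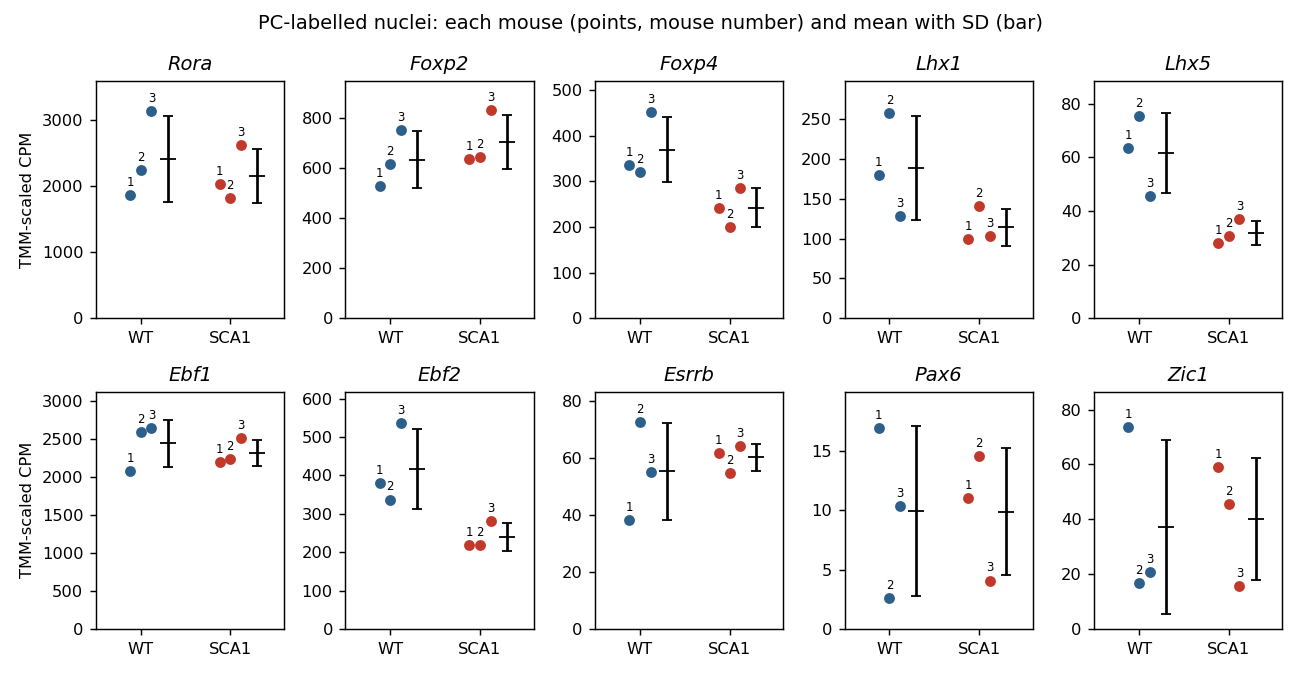
TMM-scaled CPM of the 10 factors in PC-labelled nuclei of each WT and SCA1 mouse (points with the mouse number), with the mean and SD (bar). For *Foxp4*, *Lhx5* and *Ebf2* the highest SCA1 mouse lies below the lowest WT mouse.

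Of the 10 factors 7 were lower and 3 higher by the fit in PCs, beside 47.4% of all genes tested that were lower, with a median log2 fold change of -0.13 against 0.02 over all genes. Scaling by library size alone moved the median of all genes to 0.20, a shift of 0.18. Leaving out each mouse in turn gave log2 fold changes from -1.16 to -0.80 for *Lhx5*, from -0.97 to -0.59 for *Ebf2*, from -0.98 to -0.44 for *Lhx1* and from -0.73 to -0.43 for *Foxp4*. The PC markers *Pcp2*, *Calb1*, *Car8*, *Ppp1r17*, *Slc1a6* and *Itpr1* were read beside these factors. All 6 were lower by the fit (median -0.44), 2 had an unadjusted p under 0.05, beside 6.65% of all genes tested, and none was called. Their summed level was 11216, 10834 and 15110.2 in SCA1 mice and 15530.2, 18147 and 22127 in WT mice. *Itpr1* alone averaged 8342 in SCA1 and 12755 in WT mice. The groups overlapped for *Itpr1*, *Pcp2* and *Slc1a6*. For *Calb1*, *Car8* and *Ppp1r17* all SCA1 mice lay below all WT mice, as for 5.19% of all genes tested. Without TMM scaling the groups overlapped for *Calb1* and *Ppp1r17*, and *Car8* stayed separated. The summed level of 4 granule markers in PC-labelled nuclei was 120.5, 77.0 and 20.4 in SCA1 mice against 194, 24.7 and 76.8 in WT mice, and none of these markers was at 0 in all mice. The part of either list in the results was not tested.

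The share of PC nuclei in which a factor was counted gave a second view of the same libraries. With every nucleus thinned to 10000 UMIs, 119 SCA1 and 114 WT nuclei remained. *Lhx5* was then counted in 27.3%, 21.7% and 29.8% of nuclei of SCA1 mice and in 39.4%, 55.8% and 33.8% of those of WT mice. *Ebf2* was counted in 54.3%, 61.2% and 66.5% against 71.5%, 71.5% and 76.4%, and *Foxp4* in 89.0%, 82.0% and 89.7% against 92.9%, 95.2% and 93.5%. For these 3 factors all SCA1 mice lay below all WT mice, with a two-sided exact permutation p of 0.1, the smallest that 3 against 3 allows, and an adjusted p of 0.333 over the 10 factors. Of the 9821 genes tested in PCs, 2.68% had shares separated in this direction at 10000 UMIs. *Lhx1* averaged 61.9% ± 5.43 against 77.1% ± 12.7 with overlapping mice (exact permutation p = 0.2).

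These shares changed with depth. At 3000 UMIs per nucleus, which kept 144 SCA1 and 136 WT nuclei, only *Lhx5* was separated, at 9.17%, 7.40% and 10.9% against 15.3%, 23.6% and 12.0%, beside 2.32% of all genes whose SCA1 shares all lay below the WT shares. In granule nuclei of WT mice at the same depth 0.695% were counted with *Lhx5*, 0.742% with *Ebf2*, 2.72% with *Foxp4* and 17.3% with *Lhx1*. Without thinning no factor was separated, beside 0.295% of all genes with SCA1 below WT, and *Lhx5* was counted in 61.5%, 25% and 72.4% against 64.5%, 65.9% and 48.3%. *Foxp4* then turned in direction, at 100%, 61.5% and 96.6% of nuclei in SCA1 mice against 90.8%, 87.8% and 65.5% in WT mice, a difference of means of 4.66 percentage points with overlapping mice (exact permutation p = 0.6).

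**Figure D4:**
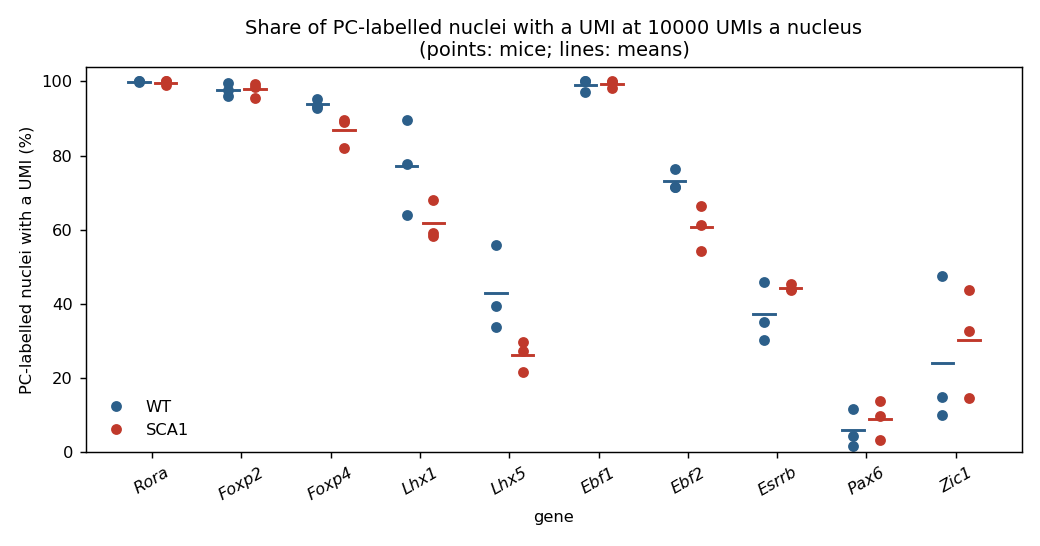
Percent of PC-labelled nuclei with at least 1 UMI of each factor after thinning to 10000 UMIs a nucleus, for each mouse (points), with group means (lines). *Lhx5* averages 26.2% in SCA1 and 43.0% in WT mice, whereas *Rora*, *Foxp2* and *Ebf1* lie near 100% in both.

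Within SCA1 mice, 10, 10 and 11 PC nuclei held a UMI of human *ATXN1* and 55, 42 and 18 held none. The split is a description, since nuclei with a UMI were deeper, with medians of 41307, 34274.5 and 58288 UMIs against 37282, 7287.5 and 56243.5. *Foxp4* was lower in nuclei with human *ATXN1* in all 3 mice, at 227, 179 and 205 CPM against 286, 232 and 329 CPM. *Lhx5* was also lower in all 3, at 30.7, 20.9 and 23.1 CPM against 32.3, 38.9 and 44.6 CPM. So were *Esrrb* (52.0, 56.6 and 53.4 against 74.5, 60.4 and 69.3 CPM) and *Pax6* (11.8, 11.9 and 0.0 against 12.8, 17.5 and 6.64 CPM). *Ebf2* showed no such order, at 250.3, 235 and 288 CPM against 250.2, 238 and 266 CPM. Of all genes tested in PCs, 10.4% were lower with human *ATXN1* in all 3 mice, and of the 10 factors 4 were. All PC nuclei of SCA1 mice 1 to 3 held 32, 17 and 7 *Pax6* UMIs and 81, 36 and 63 *Lhx5* UMIs. The orders of *Pax6* and *Lhx5* thus rest on few UMIs. *Rora* and *Foxp2* were each higher with human *ATXN1* in 2 of 3 mice.

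Granule neurons of the same mice gave a comparison in cells where the *Pcp2* promoter is not meant to drive the transgene. Of 17656 genes tested by edgeR 1 was called (0.00566%), and 313 had an unadjusted p under 0.05 (1.77%). None of the 10 factors was called. The called gene was *Gm12160* (chr11:45160943-45213656), which starts 153 kb past the end of *Ebf1* and had 261, 251 and 270 UMIs in SCA1 mice against 4, 1 and 1 in WT mice. It was not particular to granule neurons. PC-labelled nuclei held 16, 18 and 18 *Gm12160* UMIs in SCA1 mice and BG 29, 26 and 19, against 0 in each WT mouse. In Dcn.Nnat no mouse had a UMI of it. *Ebf1* itself stood at 422, 352 and 543 against 346, 383 and 515 in granule neurons. DESeq2 called 14 genes. With the replicate number as a block, edgeR called 6 genes, again without the 10 factors. *Lhx1* stood at 51.2, 58.6 and 49.5 in SCA1 mice and at 60.0, 80.7 and 60.9 in WT mice. Each SCA1 mouse lay below each WT mouse on this scale, as in 1.7% of all genes, and the groups overlapped without TMM scaling (log2 fold change -0.34, SE 0.167, edgeR adjusted p = 1).

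*Pax6*, a factor of this lineage, was at 136, 153 and 134 against 151, 206 and 135 in granule neurons (log2 fold change -0.22, SE 0.21), and *Zic1* at 423, 396 and 394 against 441, 368 and 349 (0.07, SE 0.194). Both overlapped between genotypes. *Ebf2* was the 1 factor with an unadjusted p under 0.05 in granule neurons, with a log2 fold change of -0.63 (SE 0.265, edgeR adjusted p = 1) at levels from 0.96 to 4.68. *Rora* (-0.16), *Ebf1* (0.09, SE 0.258), *Foxp4* (-0.06), *Lhx5* (-0.34), *Esrrb* (-0.05) and *Foxp2* (0.58) had unadjusted p from 0.0818 to 0.851. For *Foxp2* the value was 0.04 over nuclei sharing their cluster's label and 0.30 without WT mouse 2, and 1 nucleus held 121 of the 292 granule *Foxp2* UMIs of SCA1 mouse 3.

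**Figure D5:**
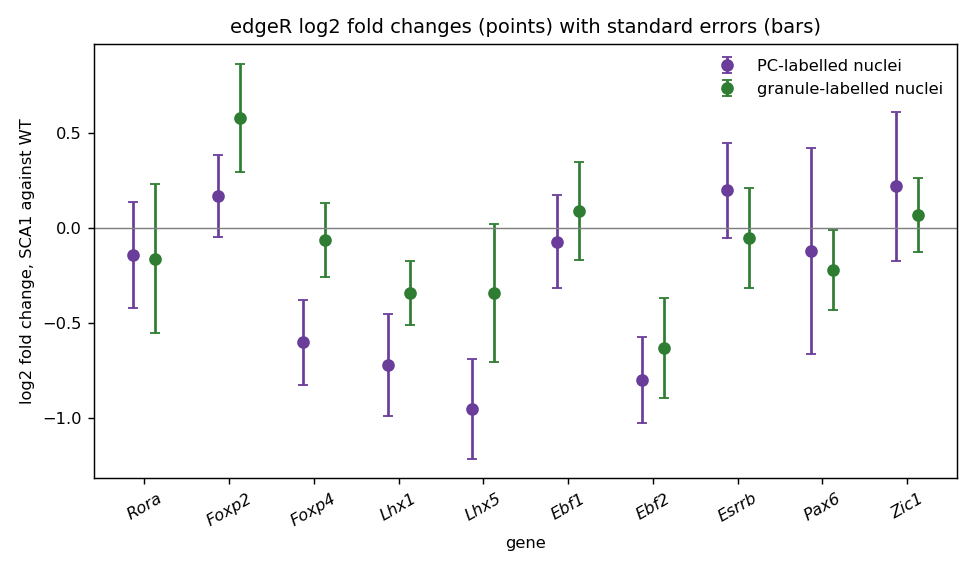
Log2 fold changes of SCA1 against WT from edgeR (points) for the 10 factors in PC-labelled and granule-labelled nuclei. Bars are standard errors derived from the F statistic of the test. *Lhx5* in PCs is lowest at -0.95, and *Rora* lies at -0.14 in PCs and -0.16 in granule neurons.

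Both labels of all 6 mice were put in 1 model, with a term for each mouse, to test whether the SCA1 change in PCs differed from that in granule neurons. By edgeR 0 of 16043 genes were called (0.0%) and 745 had an unadjusted p under 0.05 (4.64%). By DESeq2 30 were called, none of them among the 10 factors. The PC change minus the granule change was -0.57 on the log2 scale for *Foxp4* (SE 0.456), -0.54 for *Lhx5* (SE 0.589), -0.40 for *Lhx1* (SE 0.201) and -0.18 for *Ebf2* (SE 0.62). Leaving out 1 mouse moved these from -1.05 (without WT mouse 1) to -0.13 (without WT mouse 3) for *Foxp4*, from -1.24 (without WT mouse 1) to 0.06 (without SCA1 mouse 1) for *Lhx5*, from -0.52 (without WT mouse 3) to -0.21 (without WT mouse 2) for *Lhx1* and from -0.80 (without WT mouse 1) to 0.57 (without SCA1 mouse 1) for *Ebf2*. The adjusted p was 1 for all 10 with all mice. A difference between PCs and granule neurons in the change of these factors was therefore not shown.

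In the other 11 labels, 74 tests of a factor were made, none passed the threshold and 5 had an unadjusted p under 0.05, against 1.42% of 100578 tests over all genes. Among these, *Lhx1* in OL (log2 fold change -0.88, SE 0.343) and *Ebf1* in VA (0.75), Pvalb-Cadm1 (1.56) and Pvalb-Chrm2 (-0.94) had overlapping mice. In Pvalb-Chrm2, 1 nucleus held 44 of the 45 *Ebf1* UMIs of WT mouse 2. In Pvalb-Cadm1, 1 nucleus held 16 of the 31 *Ebf1* UMIs of SCA1 mouse 3. By the fit *Lhx1* was lower in every one of the other 11 labels where it was tested except Lgi2 (0.12), against -0.72 in PCs. The lower values ran from -0.10 (SE 0.39) in Slc17a6.Nrgn to -0.88 in OL. The labels share the same mice, and no share over all genes is set beside this order, so it is a description. *Pax6* in BG alone combined such a p with separated mice. It stood at 83.0, 65.8 and 54.6 in SCA1 mice and at 106, 121 and 91.0 in WT mice (log2 fold change -0.64, SE 0.234, edgeR adjusted p = 1). The groups overlapped without TMM scaling. In BG 1.71% of the genes tested had an unadjusted p under 0.05, and 0.604% also had all SCA1 values under all WT values.

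Further genes around these factors were read in PCs by lists of known families and pathways. Of 15 factors of PCs and other GABAergic neurons 6 passed the filter on low counts, of which 4 were lower and 2 higher by the fit (median -0.06). For granule neuron and unipolar brush cell factors 7 of 19 were tested, with 6 lower and 1 higher (median -0.40). Relatives of the 10 factors gave 4 tested of 14 (median 0.08), and RORα coregulators, which include the acetyltransferase gene *Kat5*, gave 11 of 12 (median 0.00, with 5 lower and 6 higher). No gene of these 4 lists had an unadjusted p under 0.05, beside 6.65% of all genes tested, of which 47.4% were lower (median 0.02).

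Of 6 genes known as RORα targets in PCs, all 6 were highest in the PC label and tested, with 5 lower and 1 higher by the fit (median -0.40), and 1 had an unadjusted p under 0.05. Over all genes tested in PCs 47.4% were lower (median 0.02) and 6.65% had such a p. The 1 gene was *Pcp4*, a small calmodulin regulator, at 353, 419 and 397 in SCA1 mice and at 607, 863 and 662 in WT mice. No SCA1 mouse reached the WT range (log2 fold change -0.86, SE 0.207, edgeR adjusted p = 0.233). *Pcp2*, *Itpr1* and *Slc1a6* in this list were also among the PC markers. *Rora* itself, as given above, overlapped between genotypes.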

How the data were processed

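Nuclei of whole cerebella from 3 SCA1 and 3 WT mice were analysed from the UMI counts per gene and nucleus that the authors deposited, which are whole numbers without normalization. The authors aligned reads with CellRanger to mm10 with human *ATXN1* added, counted intronic reads and removed debris with DIEM at a higher UMI minimum for one sequencing run. The submitters' processing notes name Cell Ranger 4.0.0, 5.0.1 and 6.0.1, R 4.1.0 and Seurat 4.0.4. The strand setting of the counting is not given in the sources used here. No doublet caller was run. SingleR labels were used as deposited, and 95.8% of nuclei carried the commonest label of their cluster.

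Counts were summed per mouse and label, for labels with at least 10 nuclei in each mouse, and tested with edgeR 4.0.16 in R 4.3.3 (quasi-likelihood test, TMM, filterByExpr minimum count 10 and total 15, genotype and batch as terms, Benjamini-Hochberg over all genes tested, threshold 0.05). Each SE was derived as the absolute log2 fold change over the square root of the F statistic of the quasi-likelihood test. The study tested single nuclei, which are not replicates of a genotype. Batch was inferred from the library numbers, with SCA1 mouse 1 and WT mouse 1 in batch 1. DESeq2 1.42.0 was an alternative, beside other scalings, no filter, no batch term, the replicate block, nuclei of at least 3000 UMIs, nuclei sharing their cluster's label and leaving out each mouse. The sample labels do not pair the mice by number. In granule sums, mice with the same number deviated together (r = 0.867, 0.26 and 0.785). WT mouse 2 deviated still more like SCA1 mouse 3 there (r = 0.386), and the mice numbered 1 were also batch 1. In PC sums same-numbered mice did not all deviate together (r = 0.673, 0.067 and 0.503). Deviations were taken from group means, which ties these r values to each other, so they cannot decide whether the numbers are pairs. As the sample labels give no pairs, the numbers were used only as a block in an alternative fit.

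Shares of nuclei with a UMI were compared by a two-sided exact permutation test over mice (Python 3.11.15, scipy 1.17.1, numpy 2.4.6, pandas 2.3.3, matplotlib 3.10.9). The edgeR and DESeq2 fits per label and the edgeR interaction were tested on simulated counts, with the same dispersion for all genes and no batch effect. Of genes given a log2 change of 1.5, edgeR called 88.5% in PCs, 92.5% in granule neurons and 48.5% in the interaction. Gene positions come from GENCODE for mm10, joined by symbol. The 10 factors and the gene lists were chosen with earlier results of these data known. All 10 factors were named in PCs and granule neurons. In other labels a factor was named where it was called or had an unadjusted p under 0.05, and *Lhx1* was also followed across them. In PCs a gene of a list was named where it was called or had such a p and groups that did not overlap.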

Additional observations from a re-analysis of the deposited data

How the results depend on the processing

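In PCs the number of genes called, 0 by edgeR, was 8 with RLE size factors, 223 without the filter on low counts, 66 with DESeq2, 172 with the replicate block in place of batch, 1 over nuclei sharing their cluster's label, and 0 to 6 with 1 mouse left out, the highest without WT mouse 2 and 2 without WT mouse 3. With the replicate block 2 of the 10 factors were called, *Ebf2* (-0.79, adjusted p = 0.0132) and *Foxp4* (-0.60, adjusted p = 0.0384), and over all alternatives the smallest adjusted p was 0.0618 for *Lhx1* and 0.0772 for *Lhx5*. The replicate numbers were not taken as pairs, since the sample labels give none. In PC sums WT mouse 2 had nearly the same r, near 0, with SCA1 mouse 2 (0.067) and SCA1 mouse 3 (0.0792). In granule sums its r was 0.26 with SCA1 mouse 2 and 0.386 with SCA1 mouse 3. Deviations were taken from group means, which ties these r values to each other, so they cannot decide whether the numbers are pairs. The log2 fold changes of *Ebf2*, *Foxp4*, *Lhx1* and *Lhx5* in PCs stayed below 0 under every alternative run, and their shares of nuclei did not.

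In granule neurons (1 gene called) the count was 2 without the filter, 14 with DESeq2, 0 without the batch term, 6 with the block and 0 to 1 with 1 mouse left out (0 without SCA1 mouse 1 and without WT mouse 2). The interaction (0) gave 30 with DESeq2, 1 with the shared label and 0 to 4 with 1 mouse left out, the highest without WT mouse 1. The other labels together (1 gene, *Gm12160* in OL) gave 0 with library size only, 153 without the filter, 4 with DESeq2, 0 without the batch term, 16 with the block and 0 to 20 with 1 mouse left out. Without the filter 2 factors were called there, *Foxp2* and *Ebf1* in Pvalb-Cadm1, where all 37 *Foxp2* UMIs of SCA1 mouse 2 came from 1 nucleus. In the same label 1 nucleus held 16 of the 31 *Ebf1* UMIs of SCA1 mouse 3. The number of factors with separated shares in PCs (0 unthinned) was 1 at 3000 UMIs, 3 at 10000 UMIs and 0 to 3 with 1 mouse left out, beside 0.295%, 2.32% and 2.68% of all genes with SCA1 below WT unthinned, at 3000 and at 10000 UMIs.

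Some log2 fold changes changed sign. In PCs, library size only gave *Rora* 0.05, *Ebf1* 0.12 and *Pax6* 0.09, and DESeq2 gave *Pax6* 0.01. In the interaction, library size only gave *Rora* 0.19, *Ebf1* 0.00, *Ebf2* 0.01 and *Pax6* 0.05, DESeq2 gave *Pax6* 0.04, nuclei of at least 3000 UMIs gave *Rora* 0.03, and the shared label gave *Foxp2* 0.06, *Ebf2* 0.12 and *Zic1* -0.03. Leaving out 1 mouse gave in PCs *Rora* -0.27 to 0.05, *Ebf1* -0.14 to 0.00, *Esrrb* -0.09 to 0.38, *Pax6* -0.65 to 0.41 and *Zic1* -0.29 to 0.68. In granule neurons it gave *Rora* -0.44 to 0.11, *Foxp4* -0.17 to 0.13, *Ebf1* -0.08 to 0.28 and *Esrrb* -0.22 to 0.05. In the interaction it gave *Rora* -0.11 to 0.16, *Foxp2* -1.17 to 0.08, *Lhx5* -1.24 to 0.06, *Ebf2* -0.80 to 0.57, *Esrrb* -0.34 to 0.75, *Pax6* -0.52 to 0.71 and *Zic1* -0.35 to 0.82. Differences of PC shares in percentage points, SCA1 minus WT, turned at 3000 UMIs for *Rora* (1.38), *Foxp4* (-9.56, against 4.66 unthinned), *Ebf1* (-0.486) and *Zic1* (-0.14), and at 10000 UMIs for *Foxp4* (-6.98). With 1 mouse left out the unthinned differences were *Rora* -1.93 to 1.13, *Foxp4* -3.27 to 16.9, *Lhx1* -12.7 to 4.02, *Lhx5* -16.3 to 7.38, *Ebf1* -2.97 to 9.48, *Ebf2* -13.7 to 3.83, *Pax6* -4.86 to 14.9 and *Zic1* -4.63 to 24.8. The cause of these changes was not tested.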
